A study of Caenorhabditis elegans with 4 samples.

Results

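Chromosome V of Caenorhabditis elegans carried 1136 of the 6333 regions called as bound by a GFP-tagged homeodomain protein in third-stage (L3) larvae. The members were chosen by chromosome alone. They are every peak that the deposited combined list places on V, and the replicate 1 and replicate 2 lists placed 699 of 4082 and 482 of 2867 peaks there. Chromatin immunoprecipitation followed by sequencing (ChIP-seq) fixes proteins to DNA, pulls down 1 protein with an antibody and reads the DNA that comes with it. Peaks are stretches where the precipitated DNA exceeds background. There were 2 samples precipitated with an antibody against GFP. The other 2 samples were inputs, chromatin DNA saved before precipitation, which were not analysed here.

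Both ChIP samples and both inputs came from hermaphrodite larvae of strain OP241, grown at 20 degrees Celsius. All of them carried the mutation unc119(ed3) and the transgene wgIs241, which joins ceh-38 to TY1, EGFP and FLAG tags and includes unc119 as the rescue marker. The transgene was introduced by particle bombardment, and the protein is tagged at its C-terminus. No strain without the tag was analysed here, so signal that does not depend on the tagged protein cannot be told apart. The labels name 2 factors. Titles give CEH-28, whereas the strain and genotype give ceh-38, so the protein is called the tagged factor. CEH-28 is an NK-2 class homeodomain protein and CEH-38 a ONECUT protein, which has a cut domain beside its homeodomain. Whole larvae were used, so binding in different tissues is averaged. Whether the 2 replicates were separate cultures is not stated, so SDs between them may reflect technical spread. The p-values come from counts of peaks within a given list and do not measure spread between replicates.

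In C. elegans the middle of each autosome is rich in conserved and essential genes, and the arms hold more repeats, recombine more and carry more repressive chromatin. Chromosome V is the longest of the 6 chromosomes, and is known for large families of chemoreceptor genes. Regions are given by position on the WormBase WS180 build named in the file headers. The genes in them were not assigned here. No published arm boundary was applied. The length covered by the 3 lists on V, 8184 to 20899379 or 20.9 Mb, was divided into a left outer part of 25% of the length (up to 5.23 Mb), a centre of 50% and a right outer part of 25% (from 15.7 Mb). A peak belongs to the part that holds its centre. Strength is given as the −log10 of the deposited q-value, which is larger for more significant peaks. It is not a count of reads, and read depth is unknown.

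Peaks were sparser on the left than in the centre. The combined list held 44.6 peaks per Mb in the left outer part, 60.2 in the centre and 52.5 in the right outer part, and 54.4 over the whole of V. The replicate 1 list held 25.7, 36.4 and 35.4 peaks per Mb in the same order, and the replicate 2 list 14.7, 27.3 and 23.0. Over the 2 replicates this came to 20.2 ± 7.72 on the left, 31.8 ± 6.43 in the centre and 29.2 ± 8.80 on the right (SD, n = 2). Each list thus had its lowest density on the left. The SDs were of the same size as the differences between parts, but they compare lists of unlike size. Over the whole of V replicate 1 had 33.5 peaks per Mb and replicate 2 had 23.1. The SDs therefore do not measure how far the differences between parts varied from list to list. The outer parts are of equal length, so their counts can be compared directly.

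The left outer part had 233 combined peaks and the right outer part 274. This did not pass an exact binomial test (two-sided, adjusted p = 0.121 over 9 tests, Benjamini-Hochberg). The replicate lists gave 134 against 185 in replicate 1 (exact binomial test, adjusted p = 0.0101 over its 6 tests) and 77 against 120 in replicate 2 (adjusted p = 0.00555, same test). All these tests count each peak as independent although peaks were clustered, so the p-values are likely too small. Over all alternatives the adjusted p of left against right ranged from 0.00555 to 0.574 (exact binomial test). These alternatives include the 2 replicate lists, and 0.00555 is the value of replicate 2 given above. The surplus on the right was gone without 1 stretch, from 18 to 20 Mb, which was chosen after its peaks were seen. The rest of the right outer part was uneven. Its windows from 16 to 17 and 17 to 18 Mb held 36 and 28 combined peaks. The incomplete last window, from 20 Mb, held 58, so high counts were not confined to that stretch. Without the stretch from 18 to 20 Mb the combined list had 44.6 peaks per Mb on the left and 39.7 in the rest of the right outer part. The densities were then 25.7 and 24.8 in replicate 1, and 14.7 and 13.3 in replicate 2.

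Fixed windows of 1 Mb from coordinate 1 showed a central rise and a second, narrower one near the right end. The 20 complete windows held between 28 and 86 combined peaks, with a median of 51.5 and a mean of 53.9 ± 17.7 (SD over windows). The densest were 10 to 11 Mb with 86 peaks, 11 to 12 Mb with 83 and 19 to 20 Mb with 76. The sparsest were 17 to 18 Mb with 28, 15 to 16 Mb with 32 and 7 to 8 Mb with 35. The chromosome thus passed from its sparsest complete window, at 17 to 18 Mb, to 70 peaks in the next. The incomplete last window, from 20 Mb, held 58.

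**Figure D1:**
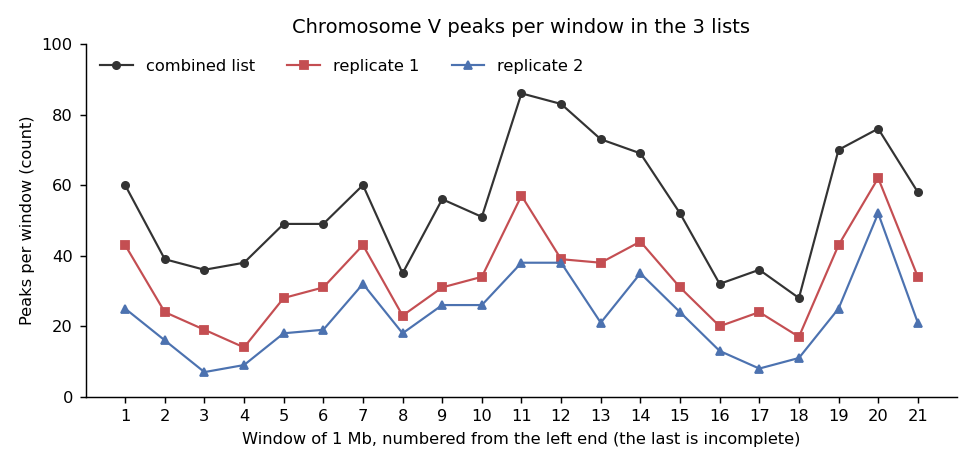
Peaks per 1 Mb window of chromosome V (count) in the combined list (black circles), replicate 1 (red squares) and replicate 2 (blue triangles), against the number of the window from the left end. The combined list is highest in the windows from 10 to 12 Mb (numbers 11 and 12), and both replicates are highest from 19 to 20 Mb (number 20).

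The lists did not have the same densest window. Replicate 1 and replicate 2 were both densest from 19 to 20 Mb, with 62 and 52 peaks. The combined list was densest from 10 to 11 Mb, where the replicates had 57 and 38. Peaks found in both replicates numbered 42 from 19 to 20 Mb, 33 from 10 to 11 Mb and 26 from 11 to 12 Mb. Peaks found in neither numbered 16, 28 and 33 in the same windows. Each of these 2 central windows therefore held more peaks without replicate support than the window from 19 to 20 Mb. This did not extend to its neighbour from 18 to 19 Mb, where 30 of 70 peaks (42.9%) were found in neither. The shares were 32.6% from 10 to 11 Mb and 39.8% from 11 to 12 Mb. Across the 20 windows the replicates' counts had a Spearman's rho of 0.91, a description of windows that share the same 2 libraries.

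The low left windows were low in each list. From 2 to 3 Mb there were 36 combined peaks, 19 in replicate 1 and 7 in replicate 2, of which 5 combined peaks (13.9%) had support in both. From 3 to 4 Mb there were 38 combined peaks, 14 in replicate 1 and 9 in replicate 2, of which 6 (15.8%) had support in both. The 2 longest stretches without a combined peak lay here. The first ran from 2327541 to 2600491 (273 kb) and held no peak of either replicate. The second ran from 2928437 to 3118328 (190 kb), and the third longest, on the right, from 16966038 to 17145270 (179 kb). Neither held a whole replicate peak, but 1 replicate 1 peak reached into the second from its edge and 1 replicate 2 peak into the third.

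The most significant regions of chromosome V lay together near its right end. Of the 10 combined peaks of lowest q with support in both replicates, 9 lay between 18.6 and 19.7 Mb. The strongest ran from 19111981 to 19114771 (2791 bp), with −log10 q values of 252.6 (combined), 161.2 (replicate 1) and 124.1 (replicate 2). The next, from 19686493 to 19687898 (1406 bp), had 245.8, 169.8 and 93.9 in the same order. The peak from 19629419 to 19630937 had 242.7, 180.9 and 108.2, and was the strongest replicate 1 peak of the chromosome. These 3 peaks were stronger in replicate 1 than in replicate 2.

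A neighbour only a few kb away, from 19634912 to 19637010 (2099 bp), had a combined value of 224.2, with 156.5 in replicate 1 and 105.3 in replicate 2. The peak from 18983777 to 18986929 was the second widest of the chromosome at 3153 bp, with 220.1, 147.3 and 89.6. The peak from 19076139 to 19077580 had 171.0, 113.9 and 72.6. All of them were again stronger in replicate 1. The peaks from 18628382 to 18630052 and from 19106587 to 19107990 had combined values of 156.1 and 155.0. The last of the 9, from 19066522 to 19067929, had 146.8, and the first peak left out of the 10, from 19026338 to 19028551, had 137.2.

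The exception was in the centre. The peak from 6225933 to 6230024 was the widest of chromosome V at 4092 bp, with a combined −log10 q of 165.8. Unlike the other 9 it was stronger in replicate 2 (80.4) than in replicate 1 (64.7). At 220 bp to its left ended the third widest peak, from 6222609 to 6225712 (3104 bp), with a combined value of 101.7, 39.4 in replicate 1 and 44.9 in replicate 2. The next strongest central peaks ran from 9729809 to 9732474 (128.8) and from 9342936 to 9345021 (117.8). In the left outer part the strongest was the peak from 1151104 to 1152113, with a combined value of 121.2, 68.5 in replicate 1 and 65.1 in replicate 2. After it came the peak from 5049264 to 5050252 at 95.3.

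Counts of strong peaks showed the same placement. A −log10 q above 100 was reached by 17 combined peaks of V (1.496%), against 2.16% of all combined peaks of the series. Of the 17, 1 lay in the left outer part, 4 in the centre and 12 on the right, and all 12 were between 18 and 20 Mb. In replicate 1 the 8 peaks above 100 were all between 18 and 20 Mb, and so were the 4 in replicate 2. That stretch is 9.57% of the span and held 146 combined peaks, or 12.9% of those on V.

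The 10% of the chromosome's combined peaks with the lowest q were 114 peaks with a −log10 q of at least 23.84, the next peak below having 23.81. In the left outer part 13 of 233 peaks were in this class (5.58%), against 52 of 274 on the right (19.0%; Fisher's exact test, two-sided, adjusted p = 3.89e-05). The shares were 8.21% against 21.1% in replicate 1 (Fisher's exact test, adjusted p = 0.00516) and 6.49% against 22.5% in replicate 2 (adjusted p = 0.00555, same test). Both outer parts together had 65 of 507 peaks in the class (12.8%), against 49 of 629 in the centre (7.79%; Fisher's exact test, adjusted p = 0.0244). The difference was larger in replicate 1, at 15.7% against 5.26% (Fisher's exact test, adjusted p = 3.86e-05), and in replicate 2, at 16.2% against 5.61% (adjusted p = 0.00102, same test). The stretch from 18 to 20 Mb held 47 of the 114.

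Without that stretch, and with the class drawn again from the remaining peaks, the left and right shares were 8.58% and 8.59% (Fisher's exact test, adjusted p = 1). The outer share was then 8.59% against 10.8% in the centre, a difference of −2.22 percentage points (Fisher's exact test, adjusted p = 0.455). The 2 windows were chosen after their strong peaks were seen, so leaving them out had to shrink both differences. These values describe how much of both results lay in the 2 windows and are no separate test. With peaks within 2000 bp joined into single regions, the difference between left and right still passed (5.38% against 16.8%, Fisher's exact test, adjusted p = 0.00325). The same step ended the call between outer parts and centre (11.3% against 8.80%, Fisher's exact test, adjusted p = 0.377). Over all alternatives the adjusted p of Fisher's exact test ranged from 7.52e-06 to 1 for left against right and from 3.86e-05 to 0.455 for outer parts against centre. The alternatives here include the 2 replicate lists, and 3.86e-05 is that of replicate 1 (same test).

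**Figure D2:**
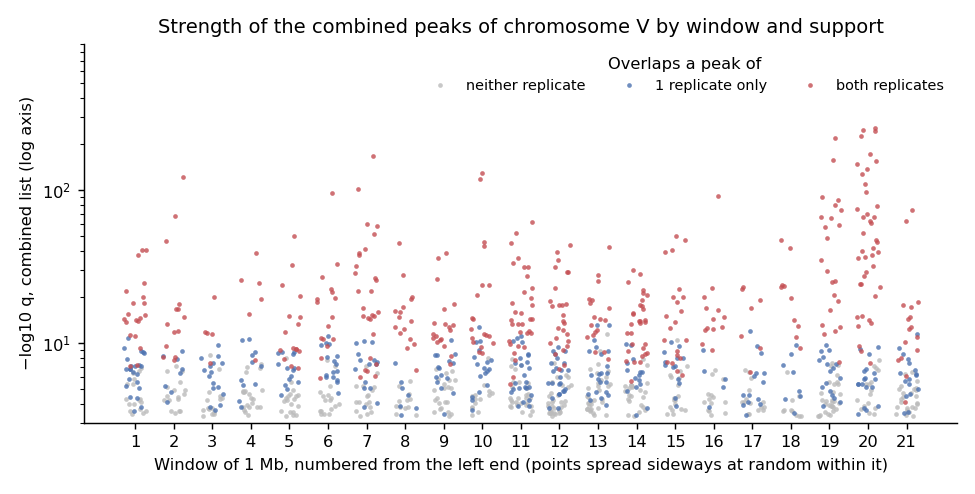
−log10 q of the 1136 combined peaks (log axis) against the number of the 1 Mb window from the left end, with points spread sideways at random within a window. Red points overlap a peak of both replicates, blue points of 1 replicate and grey points of neither; the 12 peaks above 100 on the right stand in windows 19 and 20.

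The most significant peak on chromosome V in any list was missing from the combined list. It was a replicate 2 peak, 19098902 to 19102446 (3545 bp), whose −log10 q was 292.7, which was 168.7 above the next replicate 2 value on V. Neither the replicate 1 list nor the combined list had a peak that touched it. Its nearest combined peaks ended 11172 bp to the left and began 4140 bp to the right, the right one being the peak from 19106587 to 19107990. Replicate 1 had a peak at that right neighbour (−log10 q of 100.0), and so had replicate 2 (61.4). The strongest combined peak of the chromosome began 9.53 kb to the right. The q-value was thus the lowest of the chromosome in 1 replicate at a place with no call in the other.

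Within 600 kb of this position the combined list had 115 peaks, replicate 1 had 80 and replicate 2 had 61. The strong peaks fell into groups with quiet stretches between them. Besides this peak, V had 1 other replicate 2 peak without a combined peak, from 8610618 to 8611411 with a −log10 q of 4.41. Of the replicate 1 peaks 32 of 699 had no combined peak, and their −log10 q lay between 3.39 and 6.20. The peaks lost from replicate 1 were thus all weak, whereas those lost from replicate 2 were 1 weak and 1 very strong.

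**Figure D3:**
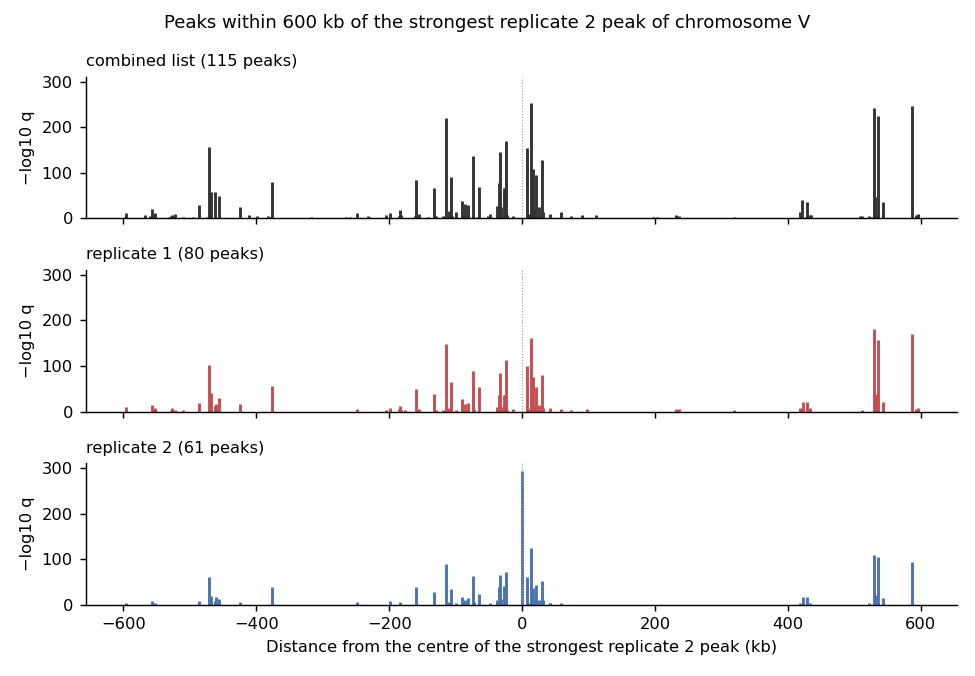
−log10 q of every peak within 600 kb of the strongest replicate 2 peak of chromosome V, against the distance of its centre in kb, for the combined list (top), replicate 1 (middle) and replicate 2 (bottom). The line at distance 0 reaches 292.7 in replicate 2 and has no counterpart in the other lists, whereas the neighbours at 6.61 and 12.7 kb appear in each.

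Support in the replicates followed strength. The 2 measures are not independent, since the series has no ChIP samples other than these 2 replicates. Of the 1136 combined peaks on V, 399 (35.1%, exact 95% interval 32.3 to 38.0) met peaks of both replicates by at least 1 bp, against 38.4% of all combined peaks. Another 250 (22.0%) overlapped replicate 1 only and 71 (6.25%) replicate 2 only. The remaining 416 (36.6%, 33.8 to 39.5) overlapped neither, against 35.7% of all combined peaks. The share with support in both was lower on V than the 39.1% of the other 5 chromosomes (2031 of 5197; Fisher's exact test, two-sided, adjusted p = 0.0418). It ranged from 33.5% on II to 42.1% on III, and so V was not the lowest.

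That difference was small and did not hold under every choice. The 50% of combined peaks with the lowest q, taken over all chromosomes, held 523 peaks on V. In that 50% the shares were 73.0% on V and 74.0% elsewhere (Fisher's exact test, adjusted p = 0.901). Counting support in replicate 2 alone gave 41.4% against 43.9%, and in replicate 1 alone 57.1% against 59.7% (Fisher's exact test, adjusted p = 0.183 for the first and 0.247 for the other). The alternatives gave adjusted p-values from 0.00599 to 0.901 (Fisher's exact test). Between the replicates themselves, 411 of the 699 replicate 1 peaks on V (58.8%, exact 95% interval 55.0 to 62.5) overlapped a replicate 2 peak, against 62.3% of replicate 1 peaks on all chromosomes. Of the 482 replicate 2 peaks on V, 405 (84.0%, 80.4 to 87.2) overlapped a replicate 1 peak, against 87.0% on all chromosomes.

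Up to a −log10 q of 5, 1 of 379 combined peaks on V had support in both replicates and 302 (79.7%) had support in neither. Between 5 and 10 the share with both was 19.9% (83 of 418), and between 10 and 20 it was 87.9% (175 of 199). All 95 peaks between 20 and 50 and all 45 above 50 had support in both. The strongest peak without any support had a −log10 q of 11.4, and the weakest with both had 4.12. Support thus passed from rare to near complete between values of 5 and 20. The combined peaks without support lay a median of 5.81 kb from the nearest peak of either replicate, and 112 of the 416 lay within 2000 bp of one.

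Support by part was lowest on the left. It was found in both replicates for 63 of 233 combined peaks in the left outer part (27.0%), 235 of 629 in the centre (37.4%) and 101 of 274 on the right (36.9%). The difference between left and right passed narrowly (Fisher's exact test, adjusted p = 0.0498). Without the peaks from 18 to 20 Mb it was 27.0% against 28.1% (Fisher's exact test, adjusted p = 1). The outer parts together had 32.3% against 37.4% in the centre, which was not past the threshold (Fisher's exact test, adjusted p = 0.121). It passed without that stretch, at 27.4% against 37.4% (Fisher's exact test, adjusted p = 0.00744). The stretch was chosen after its values were seen, and 44.5% of its peaks had support in both replicates. Leaving it out had to lower the right and outer shares, so neither result without it tests the parts. Over all alternatives the adjusted p ranged from 0.0111 to 1 for left against right and from 0.00744 to 1 for outer parts against centre (Fisher's exact test).

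Set beside each other at like strength, the parts overlapped. Between −log10 q values of 5 and 10 the shares with support in both were 17.7% on the left (exact 95% interval 10.7 to 26.8), 23.0% in the centre (17.8 to 28.9) and 13.3% on the right (6.81 to 22.5). Between 10 and 20 they were 90.9%, 85.9% and 93.5%, again with intervals that overlapped. The left outer part had few peaks above 20: 16 of them, against 64 in the centre and 60 on the right. No test was made within these classes.

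**Figure D4:**
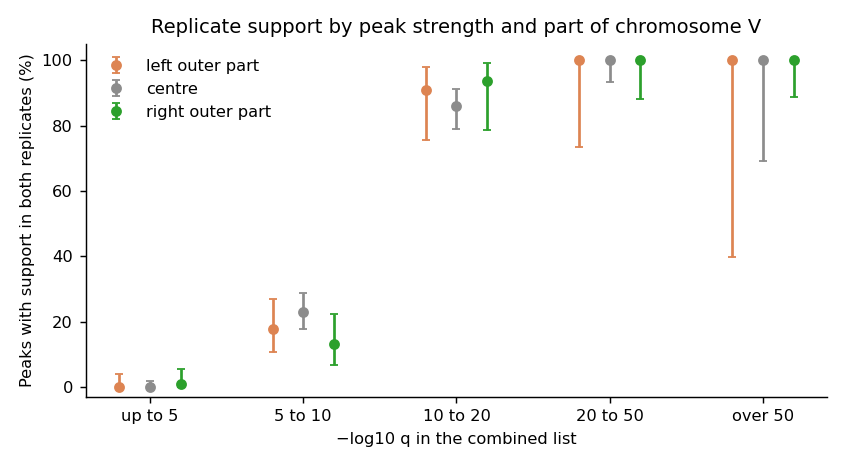
Share of the combined peaks on V that had support in both replicates (%, with exact 95% binomial intervals) against the class of −log10 q, for the left outer part (orange), the centre (grey) and the right outer part (green). The 3 parts rise together, with 0 to 1% up to a value of 5 and 100% above 20.

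Where a combined peak had support in both replicates, its q was almost always lower than in either. The combined −log10 q exceeded both replicate values in 387 of the 399 peaks (97.0%). The median −log10 q was 15.0 for the combined list, against 9.12 for replicate 1 and 7.48 for replicate 2. Where a combined peak overlapped 2 or more peaks of a replicate, only that of lowest q was used, for values and widths alike. This concerned 18 combined peaks on V for replicate 1 and 14 for replicate 2. Median widths were 452 bp for the replicate 1 peaks so matched and 499 bp for those of replicate 2. The 399 combined peaks had a median width of 615 bp, and 310 were wider than both. Measured from the outermost edge of any overlapping replicate peak, they reached a median of 15 bp further on the left and 9 bp further on the right. Spearman's rho between the replicates' values was 0.73 over these 399 regions, a description of neighbouring regions from the same 2 libraries.

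The balance between the replicates changed along the chromosome. Replicate 1 had the larger −log10 q in 49 of 63 of these peaks in the left outer part (77.8%, exact 95% interval 65.5 to 87.3), 132 of 235 in the centre (56.2%, 49.6 to 62.6) and 87 of 101 on the right (86.1%, 77.8 to 92.2). The median difference, replicate 1 minus replicate 2, was 2.56 on the left, 0.352 in the centre and 4.23 on the right. Among combined peaks above 50, replicate 1 was the stronger in 4 of 4 on the left, 4 of 10 in the centre and 28 of 31 on the right. Above 50 the exact 95% intervals of the left (39.8 to 100) and the centre (12.2 to 73.8) overlapped. Over all 399 peaks the interval for the centre lay below those of both outer parts. The difference was seen after the fact and was not tested, and as q depends on depth and background it is no measure of how much protein was bound.

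Peaks on V were a median of 386.5 bp wide in the combined list, with quartiles of 267 and 601 bp. Replicate 1 had a median of 363 bp and replicate 2 one of 475.5 bp (419.3 ± 79.5 bp, SD, n = 2). By part the combined medians were 381 bp on the left, 420 bp in the centre and 338 bp on the right, differences that were smaller than the gap between the replicates. Replicate 1 gave 342.5, 380 and 339 bp, and replicate 2 gave 437, 477 and 487 bp. The right outer part was thus the narrowest in the combined list and replicate 1, and the widest in replicate 2.

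Among peaks without support the right outer part was the narrowest. Peaks on the right with support in neither replicate had a median width of 220.5 bp, against 295 bp in the centre and 296 bp on the left. With support in both, the medians were 619 bp on the right, 607 bp in the centre and 637 bp on the left. Over the whole of V the medians were 615 bp with support in both, 336.5 bp for replicate 1 only, 430 bp for replicate 2 only and 278.5 bp for neither. Under 50 bp were 27 combined peaks on V (2.38%), against 2.16% of all combined peaks, and 22 of them had no support and none had support in both. The narrowest was 1 bp.

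**Figure D5:**
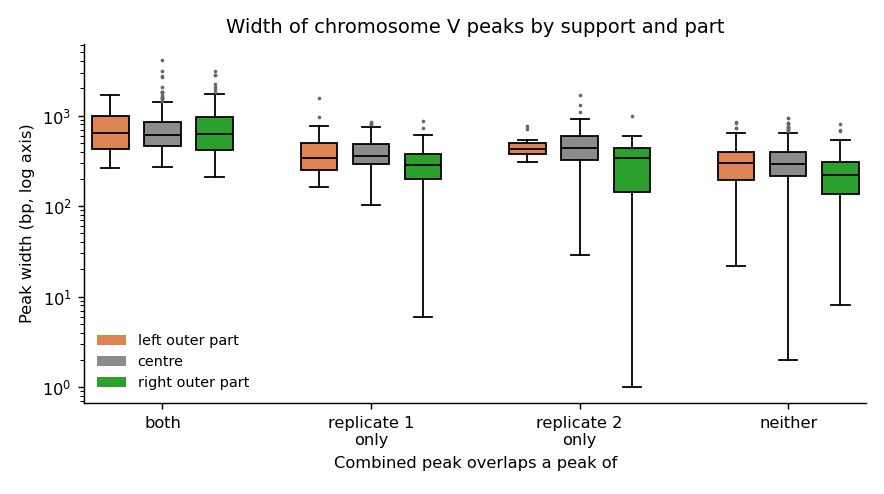
Width of the combined peaks of chromosome V (bp, log axis) by the replicate lists they overlap, for the left outer part (orange), the centre (grey) and the right outer part (green). Boxes give the quartiles and median, whiskers reach 1.5 times the box height at most, and points lie beyond them; peaks with support in both replicates are the widest in each part, at medians of 607 to 637 bp.

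The share of broad peaks did not pass a test between parts or against the other chromosomes in the combined list. A width of 1 kb or more was reached by 84 combined peaks on V (7.39%, exact 95% interval 5.94 to 9.07), against 8.51% of all combined peaks, and 80 of the 84 had support in both replicates. The shares were 7.30% on the left and 9.12% on the right (Fisher's exact test, adjusted p = 0.519), and 8.28% in the outer parts against 6.68% in the centre (adjusted p = 0.346, same test). Against the other chromosomes V had 7.39% and they had 8.76% (Fisher's exact test, adjusted p = 0.183). Replicate 1 taken alone passed for outer parts against centre and for V against the rest. There the outer parts had 5.96% against 2.37% in the centre, and V had 4.01% against 6.24% on the other chromosomes (Fisher's exact test, adjusted p = 0.0255 for each). In replicate 2 they did not pass, at 14.2% against 8.42% and 10.8% against 12.9% (Fisher's exact test, adjusted p = 0.0781 and 0.227). Of the 84, 22 lay between 18 and 20 Mb. The fifth widest peak, from 18637501 to 18640287 (2787 bp), was among them, with a combined −log10 q of 59.0, and the next below it ran from 10201617 to 10204370 (2754 bp). Without that stretch the combined shares were 7.30% on the left and 2.34% on the right, and 5.54% in the outer parts against 6.68% in the centre, so both directions turned (Fisher's exact test, adjusted p = 0.125 and 0.642).

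Covered length gave the same order of parts as the number of peaks. Combined peaks covered 2.05% of the left outer part, 3.08% of the centre, 2.45% of the right outer part and 2.66% of V. Replicate 1 covered 1.05%, 1.61% and 1.61% of the parts, and replicate 2 covered 0.788%, 1.54% and 1.49%. In both replicates the centre and the right outer part were nearly equal, and the left was lowest.

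Neighbouring peaks on V were a median of 7.16 kb apart in the combined list, 12.7 kb in replicate 1 and 16.4 kb in replicate 2. The closest pair was 203 bp apart. Of the 1135 gaps, 282 (24.8%, exact 95% interval 22.4 to 27.5) were at most 2000 bp, against 26.3% on all chromosomes. Close neighbours made up 20.3% of the gaps on the left, 26.0% in the centre and 26.4% on the right in the combined list. In replicate 2 the shares were 7.89%, 16.5% and 26.1%, and in replicate 1 they were 17.3%, 20.3% and 22.8%. The order of the 3 parts was the same in each list, with the left lowest, although the intervals of the combined shares overlapped. Without the peaks from 18 to 20 Mb the combined share on the right was 18.9%, below the 20.3% on the left.

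Runs of peaks in which every gap was at most 2000 bp ranged up to 6 peaks. There were 670 single peaks, 126 pairs and 58 runs of at least 3, which held 214 peaks (18.8% of those on V, against 20.1% on all chromosomes). Runs of at least 3 held 10.3% of the peaks on the left, 20.3% in the centre and 22.6% on the right. Support in both replicates was found for 28.7% of single peaks, 40.5% of paired peaks and 49.1% of those in longer runs. The median −log10 q rose alongside, at 5.90, 7.22 and 7.68.

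The 2 runs with the most peaks differed in strength. The run from 19111042 to 19122451 (11410 bp) held 6 peaks, of which 5 had support in both replicates, and it contained the strongest combined peak of the chromosome. Its second strongest member, from 19116669 to 19117858, had a −log10 q of 109.0, and the one from 19120715 to 19122451 had 96.3. The run from 13081024 to 13090667 (9644 bp) in the centre also held 6 peaks, of which 4 had support in both, and its highest value was 24.9. Of 6 runs of 5 peaks, the first from the left ran from 6510777 to 6517630 (6854 bp), with 4 of them in both replicates and a highest value of 28.8. Another run of 5, from 9327539 to 9333686, had no member with support in both replicates.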

How the data were processed

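The data are peak lists, 1 for each of the 2 anti-GFP ChIP replicates and 1 combined list, from the 4 samples of the series. PeakSeq made the peak calls on WormBase WS180, per the file headers and a column that names the caller. Not given in the sources used here are the aligner, the caller's settings, its q threshold, the part the input played and the way the replicates were combined. The authors deposited a q-value for each peak, the authors' own measure, with a position and no read count, so depth is unknown and a stricter threshold or deeper library would alter how many peaks there are and how wide.

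The −log10 of each deposited q-value was computed from its decimal text and used to rank and class peaks within a list. Values were also set side by side between lists, whose depths are unknown. Support was an overlap of at least 1 bp. Windows, parts, gaps and widths were computed from the deposited positions, which are 1-based. Counts were compared by exact binomial and Fisher's exact tests, two-sided, with Benjamini-Hochberg adjustment over the 9 tests of the combined list, and over the 6 that a replicate list allows. Widths, spacing and windows were described without a test. Intervals are exact (Clopper-Pearson) 95% and cover counting error only. The tools were Python 3.11.15 with SciPy 1.17.1, pandas 2.3.3, matplotlib 3.10.9 and NumPy 2.4.6. The steps were tested on simulated data.

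The chromosome, measures, lists and naming rule were chosen with earlier results of these data known. The rule named the 10 combined peaks of lowest q with support in both replicates, the 5 widest, the 3 densest and 3 sparsest windows, the 3 longest gaps, the 3 runs with the most peaks (ties by position) and every replicate peak above a −log10 q of 100 without a combined peak. Other regions, the stretch from 18 to 20 Mb and the strength classes were chosen after their values were seen. Genes and sequences were not used here, because the annotation supplied is that of another assembly, WBcel235.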

Additional observations from a re-analysis of the deposited data

How the results depend on the processing

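The alternatives without 18 to 20 Mb, and those with joined peaks for support, width and the lowest q, were added after the data were seen. As that stretch was chosen after its values were seen, results without it describe its weight and are no separate test. The 9 comparisons with a test were each repeated under 5 to 10 alternative settings, many of them shared between comparisons. Of the 73 repeats in all, 44 stayed on the same side of the threshold with the same sign. Differences are in percentage points, left minus right, outer minus centre or V minus the other chromosomes, and the cause of each change was not tested. With a replicate left out, the other replicate's own list took the place of the combined list. For support the combined list was kept, and overlap with the other replicate alone was counted. The left share of outer peaks minus the left share of length was −4.04 in the combined list. It was −10.9 to −7.99 with either replicate left out and −11.6 in peaks of both replicates, past the threshold in each, and turned to 2.70 without 18 to 20 Mb. The lowest-q difference between left and right (−13.4) passed under every alternative except without 18 to 20 Mb (−0.010). That between outer parts and centre (5.03) was 10.4 to 10.6 with either replicate left out, did not pass with joined peaks (2.54) or with the 20% of lowest q (3.10), and reversed without 18 to 20 Mb (−2.22).

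Support left minus right (−9.82) no longer passed in the 50% of lowest q (−13.4), with 3 parts of equal length (−5.48), with parts cut at 6 and 16 Mb (−8.15), with joined peaks (−7.52), with centres within 100 bp (−6.53), without 18 to 20 Mb (−1.09) or with either replicate left out (−9.35 to −5.48). Support outer minus centre (−5.01) passed with joined peaks (−8.25) and without 18 to 20 Mb (−9.94), and turned to 0.40 in the 50% of lowest q. Support on V minus elsewhere (−3.96) did not pass in that 50% (−0.93) or with either replicate left out (−2.62 to −2.48). For peaks of 1 kb or more, outer minus centre (1.61) was 3.59 to 5.79 with either replicate left out, past the threshold without replicate 2, and reversed with joined peaks (−0.80) and without 18 to 20 Mb (−1.14). Left minus right (−1.83) reversed with 3 parts of equal length (0.98), joined peaks (2.45) and without 18 to 20 Mb (4.95). V minus elsewhere (−1.36) was −2.23 to −2.08 with either replicate left out, and passed without replicate 2.

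Values without a test moved with the list. Density on V was 54.4 per Mb, and 25.03 in the 50% of lowest q, 19.1 in peaks of both replicates, 40.9 with joined peaks and 23.1 to 33.5 with either replicate left out. Support in both replicates was 73.0% in the 50% of lowest q and 38.5% with joined peaks. It was 28.5% with a 50% reciprocal overlap and 24.5% with centres within 100 bp. Counting replicate 2 alone, 41.4% of combined peaks had support, and counting replicate 1 alone, 57.1%. Support in neither was 4.40%, 42.1% and 44.3% for the 50% of lowest q, the reciprocal overlap and the centres. Counting replicate 1 alone, 42.9% of combined peaks lacked support, and counting replicate 2 alone, 58.6%. The median width was 577 bp in the 50% of lowest q and 363 to 475.5 bp with either replicate left out. The densest window held 3.07 times the peaks of the sparsest, and 5.22 in the 50% of lowest q, 6.5 with windows of 0.5 Mb and 4.43 to 7.43 with either replicate left out. Gaps of at most 2000 bp made up 18.2% in the 50% of lowest q and 17.5% to 20.3% with either replicate left out. Gaps of at most 1000 bp made up 14.9% and of at most 5000 bp 43.0%. No paired analysis was possible because only ChIP samples, and none of the inputs that share their replicate numbers, were analysed. With the depth unknown, a peak absent from 1 list was not called there, which does not show that it was unbound.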
